A study of Homo sapiens with 2 samples.

Results

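A set of 10 genes of amino acid transport, of 63677 gene IDs counted in all, were described in MDA-MB-231 cells, an established line from a human breast cancer that lacks the estrogen, progesterone and HER2 receptors. They were chosen by symbol and matched to the counted Ensembl IDs with a GRCh37 annotation, and all 10 of 10 were found. The CCE library was made from cells given Carpesium cernuum extract, a plant extract, and the control library from cells labelled as control. The treatment protocol text, 1 µg/mL of the extract for 24 h, stands on both samples, so the groups follow each sample's treatment label. No label states what the control cells were given. There was 1 library in each group and no replicate check. The comparison asks how transcript levels in extract-treated cells differ from those in controls.

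Amino acid transporters of the plasma membrane bring in the building blocks and fuel of dividing cells. Some are heteromers: the glycoprotein 4F2hc (CD98), made from SLC3A2, carries one of several light chains of the SLC7 family to the cell surface, and the light chain does the transport. Other carriers use the sodium gradient to load the cell with small neutral amino acids such as glutamine and alanine, which exchangers then trade for leucine and other essential amino acids. Many of these genes are known targets of the transcription factor ATF4, which is made when amino acids run short or the endoplasmic reticulum is stressed.

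In the CCE library the transporter transcripts were on the whole more abundant. SLC3A2 was 2.26-fold higher, set against the control library, and SLC38A2, a sodium-coupled carrier of glutamine and alanine, 1.74-fold higher. The other sodium-coupled and exchange carriers of small neutral amino acids (SLC38A1, SLC1A5, SLC1A4) and the glycine transporter gene SLC6A9 lay between 1.44-fold and 1.51-fold higher. The leucine exchanger gene SLC7A5 was 1.21-fold higher. Genes of cationic amino acid transport (SLC7A1, SLC7A2, SLC7A6) had counting intervals that included no difference.

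Gene counts summed to 34884501 in the CCE library and to 5633569 in the control library, and 1 count was worth 0.0287 CPM (counts per 1000000 gene counts) for CCE and 0.178 CPM for control. Members had 380 to 35503 counts in the CCE library and 72 to 2537 in the control library, and the control library set the precision. Every ratio below is CCE over control, from counts scaled to the total on genes, with an exact 95% Clopper-Pearson interval that covers counting error only, not the spread between cultures. No test was run. The line's markers were present in both libraries: all 6 of 6 expected markers, among them VIM, were measured, with summed levels of 3692 CPM in the CCE library and 6301 CPM in the control library. Of 5 markers expected at or near 0, GATA3 was measured, with 66 counts (1.89 CPM) in the CCE library and 10 counts (1.78 CPM) in the control library. PGR had 6 counts and CDH1 1 count in the CCE library and 0 each in the control library. The summed level of the 5 was 2.09 CPM in the CCE library and 1.78 CPM in the control library. ESR1 and KRT5 had 0 counts in both libraries, where 0 counts allow up to 0.0860 CPM in the CCE library and 0.533 CPM in the control library. Of 5 markers of other cell types 4 were matched, and their summed level was 0.373 CPM in the CCE library and 0.533 CPM in the control library.

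Letters of the C/EBP-ATF composite site, the element through which ATF4 is known to act, stood near the start of many of these genes. The 8 letters TGATGCAA were found, on either strand, within 1000 bases of the annotated start (canonical transcript, GRCh37) of 6 of 10 members. They occurred in 3.67% of the 19894 such windows of protein-coding genes. Many of these genes are known ATF4 targets, so a share above that of all genes could be foreseen and is given as a description. Each site is shown with 30 bases on the strand that reads the motif, 5′ to 3′, with the motif in capitals.
SLC38A2: ggaaagaaaacTGATGCAAtatcgatcgtc
SLC38A1: aggggagattcTGATGCAAtcggcccggaa
SLC1A4: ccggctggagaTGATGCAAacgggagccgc
SLC6A9: cctcgggaggcTGATGCAActttcccttta
SLC7A5: caggggcgtagTGATGCAAggatgcaggga
SLC7A1: ggcgtggtgcaTGATGCAAcaccgagtgag
SLC1A5: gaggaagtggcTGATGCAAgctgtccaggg

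The SLC38A2 site (chr12:46765825-46765854, GRCh37, plus strand) lies in an intron of this minus-strand gene, 714 bases from its start, and with the SLC38A1 site it is one of 2 that read on to TGATGCAAT, a form found in 0.965% of windows. SLC38A1 (chr12:46662572-46662601, minus strand) and SLC6A9 (chr1:44497041-44497070, minus strand) carry theirs in a 5' UTR exon, at bases 237 and 76. The SLC1A4 site (chr2:65216515-65216544, minus strand) begins 7 bases before the start. Those of SLC7A5 (chr16:87902414-87902443, plus strand) and SLC7A1 (chr13:30169276-30169305, minus strand) are intronic, at bases 682 and 532. SLC1A5 had no match in its GRCh37 window. Its line comes from the RefSeq promoter table (GRCh38.p14, chr19:46784893-46784922), 97 bases before a start that is not the one used for the window. That table covers 250 bases before to 50 after a start. Of the 9 members it holds, 2 (SLC1A4 and SLC1A5) had a match in any of their promoters. Counted per promoter and not per gene, 0.866% of its 35116 promoters had a match, so these 2 shares are not alike.

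A match is a description of letters and not a bound site. The 6 members with a match in their window had log2 ratios of 0.07 (SLC7A1) to 0.80 (SLC38A2), and SLC3A2, with the highest ratio of the 10, had no match. Over all measured protein-coding genes the median log2 ratio was 0.11 for the 367 with the letters and 0.09 for the 11206 without. The looser form TGATGNAA, which includes the 8 letters, was in 7 of 10 windows of members and in 18.7% of all. TGACNNNGC, the core of the element bound by NRF2, was in 9 of 10 and in 54.1% of all. The motifs were chosen with the ratios of the members known.

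SLC3A2 (ENSG00000168003) lies on chromosome 11 from 62623476 to 62656352 (GRCh37, plus strand) and encodes the heavy chain shared by several transporters. It had 35503 counts, or 1018 CPM, in the CCE library, against 2537 counts, or 450 CPM, in the control library. The CCE library was thus the higher by 2.26-fold (95% interval 2.17 to 2.35), a log2 ratio of 1.18 (1.12 to 1.23). Among the 14423 measured genes, those whose mean over the libraries reached 1 CPM, 4.86% were at least 2-fold higher with an interval above 1 and 4.52% at least 2-fold lower with an interval below 1. SLC3A2 was the single member that was 2-fold higher, at rank 517 from the highest ratio, and 0 members were 2-fold lower. In a bulk library, more cells with the transcript and more transcript per cell cannot be told apart.

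Of 24 rows given for SLC3A2 in the authors' FPKM tables (taken as transcripts), one had 267 FPKM in the CCE library and 161 FPKM in the control library, and another 83.1 FPKM in the CCE library and 13.2 FPKM in the control library. Both rows were higher in the CCE library, and the second by the larger factor. Summed over rows, SLC3A2 had 384 FPKM in the CCE library and 191 FPKM in the control library, a log2 ratio of 1.00 on the log2(FPKM + 1) scale. FPKM values carry no counts here, so the depth behind them is unknown.

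**Figure D1:**
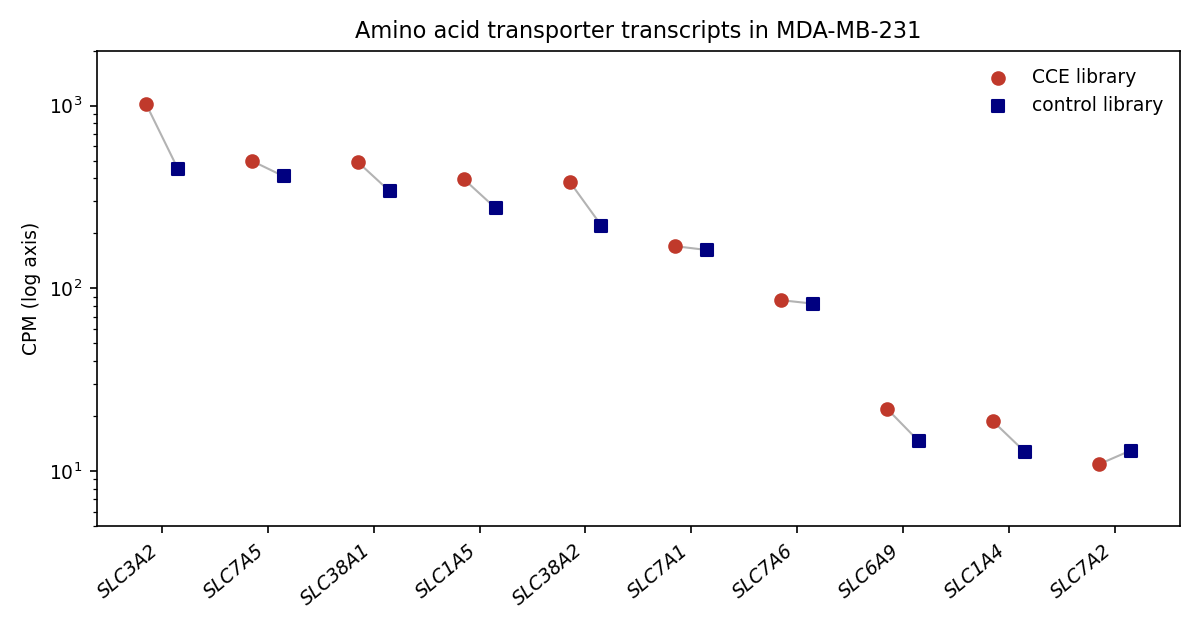
Level of each of the 10 transporter genes in CPM (log axis), with the CCE library as circles at the left and the control library as squares at the right of each pair, 1 library each. SLC3A2 stands at 1018 CPM in the CCE library and 450 CPM in the control library, and SLC7A2 is the one gene that is lower in the CCE library.

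SLC7A5 (ENSG00000103257, chromosome 16 from 87863629 to 87903113, minus strand) encodes LAT1, the light chain that brings in leucine and other large neutral amino acids in exchange for glutamine. It had 17389 counts (498 CPM) in the CCE library, against 2314 counts (411 CPM) in the control library. That is 1.21-fold higher (1.16 to 1.27), under the 1.5-fold used for calls and with an interval above 1. SLC7A5 has annotated pseudogenes of like sequence: SLC7A5P1 had 2 counts in the CCE library and 0 in the control library, and SLC7A5P2 had 0 in both. Records aligned to more than 1 place were not assigned to genes, and their share was 17.3% in the CCE library and 11.6% in the control library. Whether this share bears on SLC7A5 was not tested.

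SLC7A6 (ENSG00000103064, chromosome 16 from 68298419 to 68335726, plus strand) encodes y+LAT2, a second partner of the heavy chain, which exchanges arginine for glutamine. It had 3008 counts (86.2 CPM) in the CCE library and 465 counts (82.5 CPM) in the control library, a log2 ratio of 0.06 with an interval of -0.08 to 0.21 that includes 0. Its exons share 44.4% of their bases with SLC7A6OS on the opposite strand, which had a log2 ratio of 0.16 (0.01 to 0.32). No source used here states the strand setting of the counting. Records classed as ambiguous were set aside from genes, 1.36% in the CCE library and 1.59% in the control library. How many reads from the shared bases were counted for SLC7A6 is therefore not known. By FPKM SLC7A6 went the other way, with 0.416 in the CCE library and 3.16 in the control library.

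The heavy chain and its light chains did not differ by the same factor. Relative to SLC7A5, SLC3A2 was 1.86 times higher in the CCE library than in the control library (1.75 to 1.98), a ratio of counts within libraries that no scaling alters. Relative to SLC7A6 the factor was 2.16 (1.94 to 2.41). RPKM computed here is CPM per kilobase of annotated exon, with the exons of all transcripts of a gene joined. In RPKM the SLC3A2 level was 1.52 times that of SLC7A5 in the CCE library and 0.817 times in the control library. These levels depend on the exon length used, 6392 bases for SLC3A2 and 4764 for SLC7A5. By FPKM SLC3A2 was above SLC7A5 in both libraries, at 384 against 79.6 for CCE and 191 against 68.4 for control. The order of the pair in the control library thus depends on the measure.

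The level of SLC7A11, the light chain of the cystine-glutamate exchanger xCT and not one of the 10, was also higher, with 68.9 RPKM in the CCE library and 22.0 RPKM in the control library. It was added to this account because SLC3A2 carries it as well. Summed over the 6 light chain genes (SLC7A5, SLC7A6, SLC7A7, SLC7A8, SLC7A10 and SLC7A11), the level was 185 RPKM in the CCE library and 119 RPKM in the control library. SLC3A2 stood at 0.860 of that sum in the CCE library and at 0.590 in the control library. SLC7A5 made up 56.5% of the light chain sum in the CCE library and 72.3% in the control library. These shares of RPKM also depend on the exon lengths used.

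**Figure D2:**
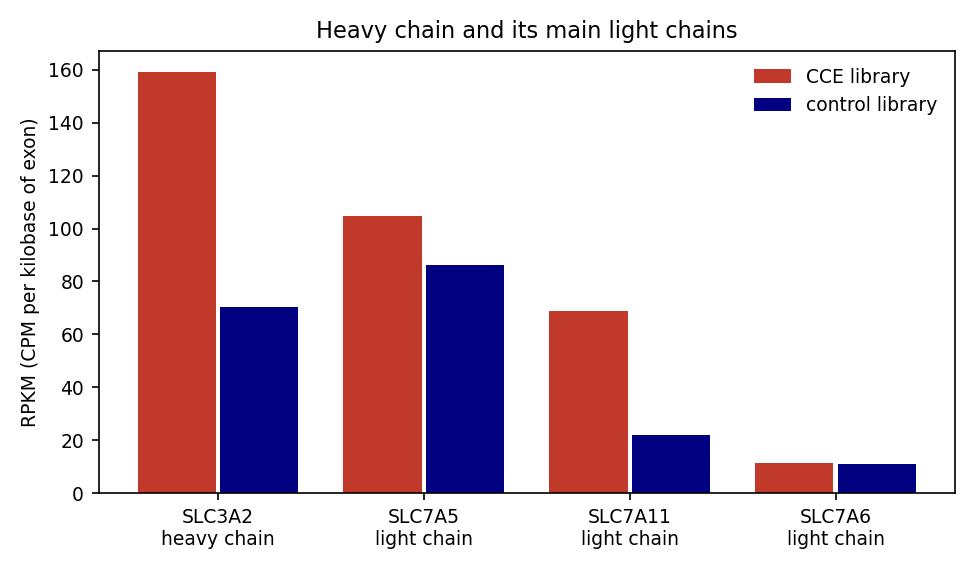
Per-length level (RPKM, CPM per kilobase of exon) of the heavy chain gene SLC3A2 and of its 3 most abundant light chain genes, with the CCE library at the left and the control library at the right of each pair, 1 library each. By this measure SLC3A2 is above SLC7A5 in the CCE library and below it in the control library, and by FPKM it is above SLC7A5 in both. SLC7A6 is at 11.4 RPKM in the CCE library and 10.9 RPKM in the control library.

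System A carriers couple uptake of small neutral amino acids to sodium and supply the glutamine that LAT1 trades for leucine. SLC38A2 (ENSG00000134294, chromosome 12 from 46751971 to 46766556, minus strand) encodes SNAT2, the member of this family best known to be induced by amino acid shortage, through the site printed above. It had 13405 counts (384 CPM) in the CCE library and 1245 counts (221 CPM) in the control library. The CCE library was higher by 1.74-fold (1.64 to 1.84), a log2 ratio of 0.80 (0.71 to 0.88) at percentile 90.7 of all measured genes. SLC38A2 has the lowest GC content of the 10, 37.6%. Relative to protein-coding genes of the same GC decile, whose median log2 ratio was 0.22, it was higher by 0.57 on the log2 scale, under the 0.585 that corresponds to 1.5-fold, and by FPKM the log2 ratio was 0.51.

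SLC38A1 (ENSG00000111371, chromosome 12 from 46576846 to 46663800, minus strand) encodes SNAT1, a glutamine carrier near SLC38A2 on the same strand. It had 17151 counts (492 CPM) in the CCE library and 1917 counts (340 CPM) in the control library, 1.44-fold higher (1.38 to 1.52). SLC38A2 differed more than its paralog: relative to SLC38A1 it was 1.20 times higher in the CCE library than in the control library (1.12 to 1.30). Per length, SLC38A2 was at 59.0 RPKM and SLC38A1 at 49.1 RPKM in the CCE library, and both were at 34.0 RPKM in the control library.

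The ASC exchangers SLC1A5 and SLC1A4 trade alanine, serine, cysteine and, for SLC1A5, glutamine. SLC1A5 (ENSG00000105281, chromosome 19 from 47278140 to 47291851, minus strand) encodes ASCT2, a main route of glutamine into cancer cells, and had 13850 counts (397 CPM) in the CCE library, against 1551 counts (275 CPM) in the control library. That is 1.44-fold higher (1.37 to 1.52). SLC1A4 (ENSG00000115902, chromosome 2 from 65215611 to 65250999, plus strand), which encodes ASCT1, was far less abundant, with 654 counts (18.7 CPM) in the CCE library and 72 counts (12.8 CPM) in the control library, 1.47-fold higher (1.15 to 1.90). The pair differed by close to the same factor, with a ratio between them of 1.02 (0.79 to 1.32). SLC1A5 shares 23.4% of its exon bases with a long noncoding RNA gene on the opposite strand that is not among the counted IDs.

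Relative to genes of the same GC decile, SLC1A5 was higher by a log2 ratio of 0.69, past 1.5-fold, and by FPKM its log2 ratio was 0.33. SLC1A4 was listed at 4.18 FPKM in the CCE library and at 0 in the control library. A value of 0 in these tables can be a failed estimate, as 0 FPKM stood beside 1846 measured genes in the CCE library and beside 3491 in the control library.

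SLC6A9 (ENSG00000196517, chromosome 1 from 44457172 to 44497139, minus strand) encodes GLYT1, which carries glycine with sodium and chloride. It had 765 counts (21.9 CPM) in the CCE library and 82 counts (14.6 CPM) in the control library, 1.51-fold higher with a wide interval of 1.20 to 1.92. The gene sat at the edge of the 1.5-fold call: under each of the 4 other scalings it was below, at log2 ratios down to 0.51. Relative to genes of the same GC decile SLC6A9 was higher by a log2 ratio of 0.75. By FPKM it was listed at 5.79 in the CCE library and at 0.0587 in the control library.

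Cationic amino acid transporters bring in arginine and lysine. SLC7A1 (ENSG00000139514, chromosome 13 from 30083551 to 30169825, minus strand) encodes CAT1, the widely expressed form, and had 5940 counts (170 CPM) in the CCE library and 914 counts (162 CPM) in the control library. Its log2 ratio was 0.07 (-0.03 to 0.17), so a difference beyond 1.13-fold in favour of the CCE library lies outside counting error. SLC7A2 (ENSG00000003989, on chromosome 8) encodes CAT2, and had 380 counts (10.9 CPM) in the CCE library and 73 counts (13.0 CPM) in the control library. Its log2 ratio of -0.25 was the one below 0 among the 10, with an interval of -0.62 to 0.13 that includes 0, and it was listed at 0 FPKM in both libraries.

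**Figure D3:**
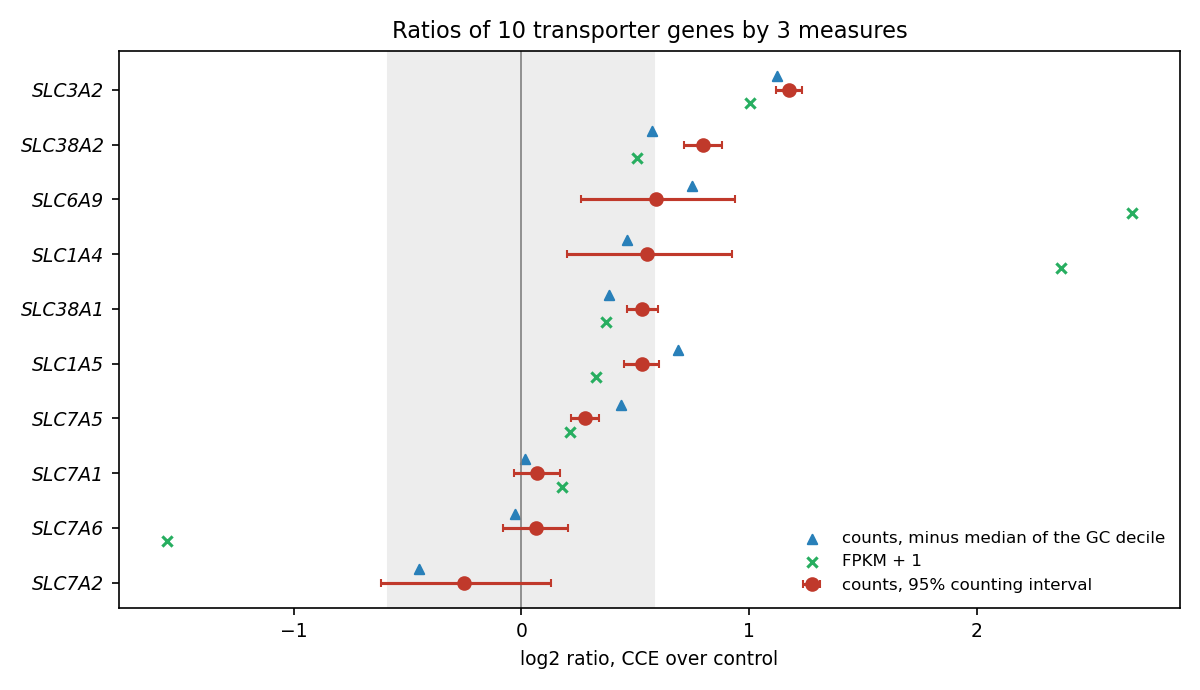
log2 ratio of CCE over control for the 10 genes by 3 measures: counts with their 95% counting interval (circles), counts minus the median of protein-coding genes in the same GC decile (triangles) and FPKM + 1 (crosses, none for SLC7A2, which is at 0 FPKM in both libraries). The grey band marks less than 1.5-fold either way. SLC3A2 and SLC6A9 lie to the right of the band by all 3 measures, SLC6A9 at its edge by counts. SLC38A2 does so by counts alone, and the crosses of SLC6A9, SLC1A4 and SLC7A6 lie far from their circles.

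Over the 10 genes the median log2 ratio was 0.53, beside 0.09 over all 14423 measured genes and 0.09 over the 11635 protein-coding ones. A log2 ratio above 0 was found for 9 of 10, beside 56.8% of measured genes. The interval lay wholly above 1 for 7 of 10, beside 32.8%, and wholly below 1 for 0 of 10, beside 22.8%, a share that also depends on how many counts a gene has. At least 1.5-fold higher were 3 of 10 (SLC3A2, SLC38A2 and SLC6A9), beside 13.6%, and 0 of 10 were at least 1.5-fold lower, beside 10.3%.

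By FPKM + 1, 3 of 10 were at least 1.5-fold higher (SLC3A2, SLC1A4 and SLC6A9), beside 21.3% of measured genes. SLC7A6 was at least 1.5-fold lower, beside 24.1%. The 10 genes together made up 0.310% of counts in the CCE library and 0.198% in the control library, 1.56-fold higher (1.53 to 1.59). Without SLC3A2 the sum was 1.36-fold higher (1.33 to 1.39), so the sum was higher without it too.

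**Figure D4:**
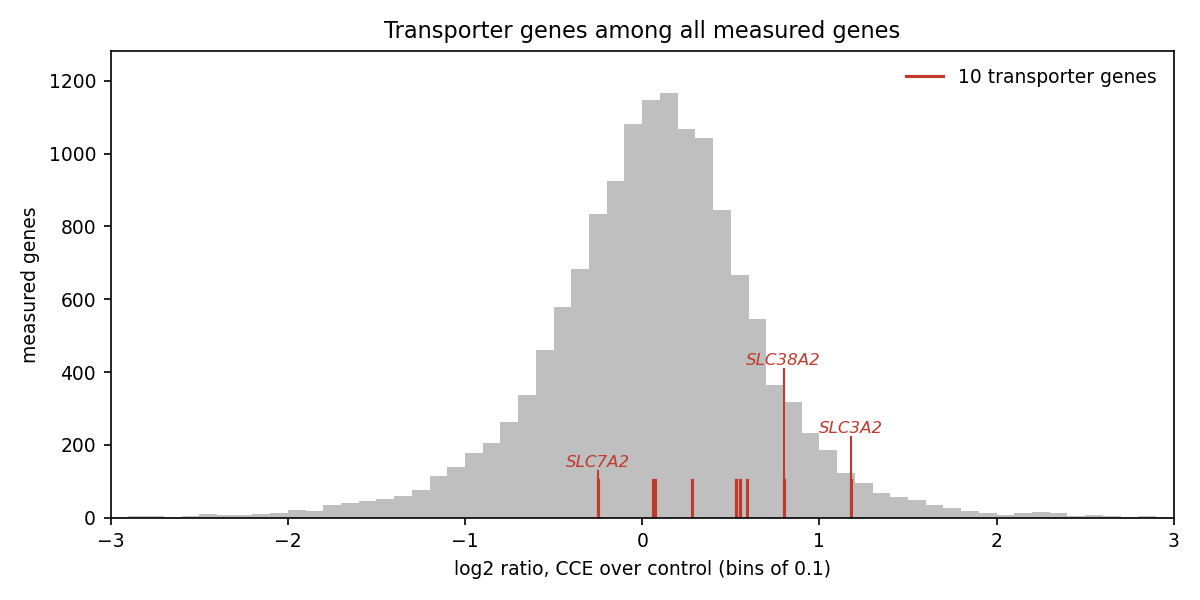
Number of measured genes by log2 ratio of CCE over control, in bins of 0.1, with the 10 transporter genes as red ticks; 53 measured genes lie outside the axis. The ticks run from -0.25 (SLC7A2) to 1.18 (SLC3A2), and 7 of them stand to the right of 0.25, where the bars are already past their peak.

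In RPKM the order of the 5 most abundant members differed between libraries, and that of the other 5 did not. By FPKM these 5 had the same order in both libraries, from the highest SLC3A2, SLC1A5, SLC7A5, SLC38A2 and SLC38A1. The order of the other 5 differed by FPKM. SLC3A2, SLC1A5 and SLC7A5 were the 3 highest in each, at 159, 119 and 105 RPKM in the CCE library, and at 70.5, 82.6 and 86.2 RPKM in the control library. SLC7A1 and SLC7A6 followed below the SLC38 pair in each library, and SLC6A9, SLC1A4 and SLC7A2 were the lowest, at 1.38 to 4.18 RPKM in the CCE library and at 1.64 to 2.77 RPKM in the control library.

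Other transporters, taken from lists of related genes, are given for context, beside 13.6% of all measured genes at least 1.5-fold higher and 10.3% lower. Not all genes of these lists encode carriers of amino acids. Of 32 other plasma membrane transporters 8 were measured, 5 of them at least 1.5-fold higher and 1 lower, with a median log2 ratio of 0.90. With no filter, over all genes of this list with counts in both libraries, the median was 0.07. SLC7A11 was 3.13-fold higher and the taurine transporter gene SLC6A6 2.23-fold higher. The leucine carrier gene SLC43A2 (325 counts in the CCE library, 16 in the control library) had a log2 ratio of 1.71, which was -0.09 by FPKM, and the glutamate transporter gene SLC1A1 (166 counts in the CCE library, 12 in the control library) had 1.16 (0.32 to 2.14). Of 9 lysosomal and endosomal transporters all 9 were measured, 4 at least 1.5-fold higher and 0 lower, with a median of 0.24 by counts and 0.51 by FPKM + 1. They were the cystine exporter gene CTNS at 1.05, the nucleoside carrier gene SLC29A3 at 0.84, the glutamine exporter gene SLC38A7 and the proton-coupled carrier gene SLC36A1, both at 0.75. By FPKM + 1 the log2 ratio was 0.15 for SLC38A7 and 2.59 for SLC36A1. Mitochondrial carriers had a median of 0.00 over 10 of 12 measured, with 1 higher (the branched-chain amino acid carrier gene SLC25A44, 0.63) and 1 lower (the basic amino acid carrier gene SLC25A29, -0.77). For SLC25A44 the log2 ratio by FPKM + 1 was 0.00, and for SLC25A29 it was -0.76.

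Genes of the amino acid response, a list of starvation sensing genes and ATF4 targets, had a median of 0.34 over 18 of 18 measured. A log2 ratio above 0 was found for 14 of 18, beside 56.8% of measured genes, and the others were below 0. At least 1.5-fold higher were 3, a share near the 13.6% of all measured genes, and 0 were lower by that fold. The 3 were the asparagine synthetase gene ASNS at 1.09 (0.97 to 1.21), and DDIT3, which encodes the transcription factor CHOP, and the pseudokinase gene TRIB3, both at 0.61. Under the 4 other scalings DDIT3 and TRIB3 were below 1.5-fold, at log2 ratios down to 0.53 and 0.52. ATF4 itself, which is known to be controlled largely in translation, had 410 CPM in each library and a log2 ratio of 0.00 (-0.06 to 0.07). TGATGCAA stood in 11 of the 17 genes of this list that had a window, beside 3.67% of all protein-coding genes. The list was chosen to include known ATF4 targets, so a high share could be foreseen and is given as a description. Among other transporters the letters stood in 2 of 32 of the plasma membrane, 2 of 12 mitochondrial carriers and 0 of 9 lysosomal and endosomal ones.

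**Figure D5:**
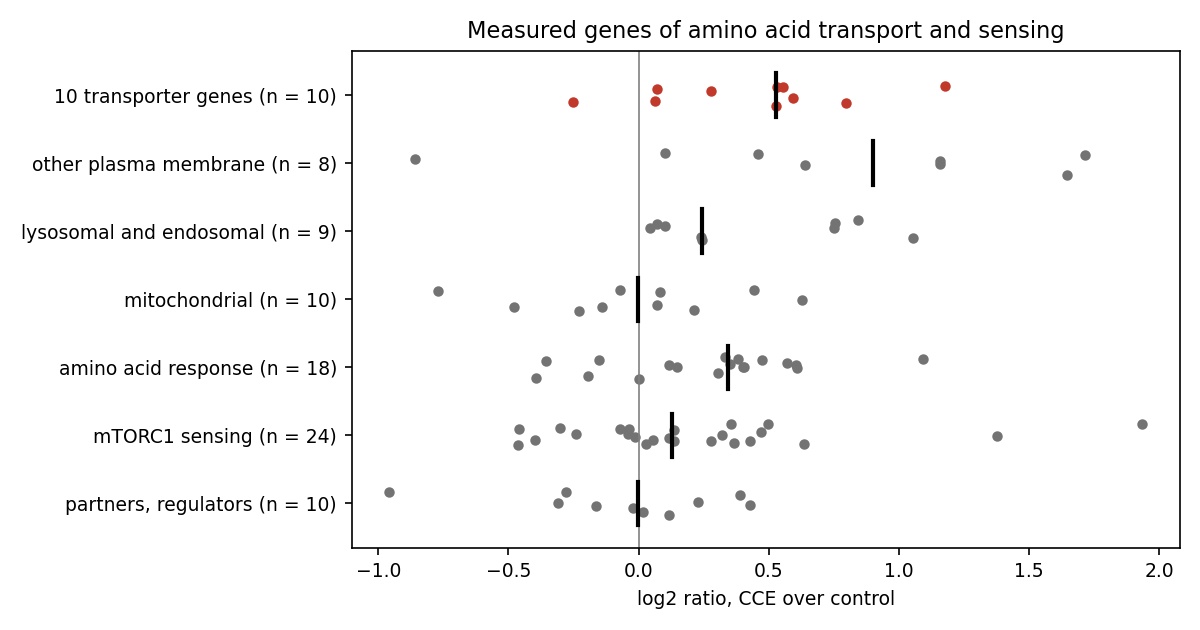
log2 ratio of CCE over control for the 10 transporter genes (red) and for measured genes of 6 related lists (grey), each point 1 gene, with the median as a black bar and random vertical spread for legibility. Medians lie at 0.53 for the 10 genes, 0.90 for the 8 measured of the other plasma membrane transporters (0.07 with no filter) and 0.00 for mitochondrial carriers.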

How the data were processed

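RNA was measured in 2 libraries, 1 per group. The authors deposited raw counts by Ensembl gene ID, 1 table a library, and HISAT2 with the builds hg19 and GRCh37 is named per the submitters' processing notes. No source used here states the counter, its strand setting or the annotation release. The last 5 rows of each count table name no gene and were left out: they held 66.8% of records in the CCE library and 62.9% in the control library. The authors also deposited FPKM values with several rows per gene ID, summed here per gene.

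Positions, symbols, exon lengths and GC content came from GENCODE release 44 lifted to GRCh37 (55665 of 63677 IDs matched). Counts were divided by the total on genes. A gene counted as measured where its mean over both libraries reached 1 CPM. A gene was called at 1.5-fold when its exact Clopper-Pearson interval (confidence level 95%) also excluded 1. Intervals and the floor of 3 counts treat each count as independent and cover counting error only. PCR copies of a molecule are counted as reads, so the intervals can be too narrow and the floor too low even for that error. With 1 library per group no test was made. Ratios between a pair of genes used the conditional odds ratio. Alternatives were TMM and upper-quartile factors (edgeR 4.0.16), DESeq2 1.42.0 size factors, totals without the mitochondrial genome, FPKM with a pseudocount of 1 or 0.1, other filters and folds, and GC and expression deciles. The code for intervals and calls was checked on simulated Poisson counts with known ratios, which hold counting error only. Python 3.11.15, scipy 1.17.1 and R 4.3.3 were used.

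The members and all lists were chosen with earlier results of these data known. Named were all 10 members, their pseudogenes and overlapping genes, and from each list up to 4 measured genes with the largest absolute log2 ratio and up to 2 of the most abundant; others that meet this rule enter the counts of their list. SLC7A7, SLC7A8 and SLC7A10 were named as light chains after their values were seen. Sequences of SLC7A2 are not reported here. Promoter sequences are from RefSeq.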

Additional observations from a re-analysis of the deposited data

How the results depend on the processing

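The number of members at least 1.5-fold higher was 3, and 2 with TMM, upper-quartile or DESeq2 factors, without mitochondrial counts, or relative to the expression decile. Relative to the GC decile it was again 3, with SLC1A5 in place of SLC38A2. At a fold of 2 it was 1, beside 4.86% of all genes that passed the filter, and at 25% above control it was 6. No share over all genes was computed at 25%, so the 6 has no background to be read against. The call of 1.5-fold higher took in 13.6% of all such genes by total counts. With TMM factors it took in 12.1%, with upper-quartile factors 10.5%, with DESeq2 factors 11.9% and without mitochondrial counts 12.1%. Relative to the GC or expression decile no such share was computed. The median of the members ranged from 0.45 to 0.53 over the scalings and was 0.35 by FPKM + 1, 0.36 by FPKM + 0.1 and 0.45 relative to the GC decile. The 4 other scalings lowered every member by 0.04 to 0.08 on the log2 scale and took SLC7A1 and SLC7A6 to between -0.02 and 0.03. Members at least 1.5-fold lower were 1 by FPKM at either pseudocount (SLC7A6, at -1.56 and -2.66), against 0 by counts. Measured genes at least 1.5-fold higher and lower were 21.3% and 24.1% by FPKM + 1 and 26.9% and 27.8% by FPKM + 0.1. At 2-fold these were 14.4% and 13.9%, and 21.7% and 18.2%. Without a filter 8.47% were at least 1.5-fold higher, and the median of the other plasma membrane transporters was 0.07, against 0.90 over the 8 measured. The median of the lysosomal and endosomal transporters was 0.24 by counts, 0.51 by FPKM + 1 and 0.68 by FPKM + 0.1. At a mean of 5 CPM, 2.88% were at least 2-fold higher and 2.57% lower. The cause of these differences was not tested. Log2 ratios from counts and FPKM + 1 correlated at a Spearman's rho of 0.345 over 10930 of the 11635 measured protein-coding genes, which are not independent replicates. Genes at 0 FPKM in both libraries or without a finite count ratio were left out of this correlation. No paired analysis was possible because each group has 1 library, and for the same reason none could be left out. SLC6A9, SLC1A4 and SLC7A2, with 72 to 82 control counts, are the members whose ratios depth limits most.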

Other observations

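Genes that sense amino acids for the growth kinase complex mTORC1, which LAT1 substrates are known to activate, had a median log2 ratio of 0.13 over 24 measured of 26, with 3 at least 1.5-fold higher and 0 lower, beside 13.6% of measured genes higher. The sestrin gene SESN1, whose product restrains mTORC1, had 209 counts in the CCE library and 13 in the control library, a log2 ratio of 1.38 (0.57 to 2.31). DEPDC5, of the GATOR1 complex, had 0.63 (0.11 to 1.20) by counts and 0.52 by FPKM + 1, under 1.5-fold. The third was the sestrin gene SESN3, which passed the filter on low values only through the CCE library (2.04 CPM on 71 counts there, 0.533 CPM on 3 counts in the control library), so its log2 ratio of 1.93 (0.33 to 4.25) had to differ and is given as a description. By FPKM + 1 it was 0.00. The GTPase gene RHEB, which activates mTORC1, had -0.46 (-0.53 to -0.40) by counts and 1.70 by FPKM + 1. Regulators and partners of the transporters had a median of 0.00 over 10 measured of 12, with 0 higher and 1 lower. That gene was SGK1, a kinase known to raise transporter activity at the membrane, with 6.85 CPM in the CCE library and 13.3 CPM in the control library and a log2 ratio of -0.96 (0.66 by FPKM + 1). BSG and CD44, membrane proteins found with CD98 and its partners, had -0.31 and -0.28, and MYC, a known activator of SLC1A5 and SLC7A5, had 0.43.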
